A study of Mus musculus with 9 samples.

Results

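The oocyte is the germ cell at the centre of the ovarian follicle, and granulosa cells are the somatic cells around it. A set of 34 genes known for their expression in oocytes was followed here in RNA from granulosa cells, as a measure of the oocyte transcripts that the preparations carried. The genes were chosen by name, and all 34 were found by symbol among the 56748 Ensembl identifiers of the expression table. Of these, 32 reached 1 FPKM (fragments scaled to gene length and library size) in at least 3 of the 9 libraries and were tested, among 14431 tested genes in all. Figla and Sohlh1 did not reach that level and are given as values only.

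The granulosa cells came from wild-type female C57BL/6 mice and formed 3 groups of 3 libraries. CTX_HCQ mice received cyclophosphamide, an alkylating drug that damages ovarian follicles, at 120 mg per kg, and hydroxychloroquine, a drug that accumulates in lysosomes. Hydroxychloroquine was given orally each day (40 mg per kg), starting 7 days ahead of the cyclophosphamide injection and ending 4 weeks after it. CTX mice received cyclophosphamide at the same dose without hydroxychloroquine. Control mice received neither drug, and are described as a vehicle group in the series text and as untreated in the labels. Neither the age of the mice nor the number of mice behind a library is in the labels, and the p-values below therefore reflect a spread that could be partly technical.

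Growing oocytes build the zona pellucida, a coat of glycoproteins, and send growth factors of the TGF-beta family to the granulosa cells, which in turn feed the oocyte and supply KIT ligand. They also store proteins and messenger RNAs for the early embryo, among them the subcortical maternal complex beneath the oocyte membrane. In the mouse, the transcription factors FIGLA, NOBOX, SOHLH1 and LHX8 switch on this programme in small oocytes. The messenger RNA was captured by its poly(A) tail, so stored transcripts with short tails may be recovered incompletely.

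FIGLA belongs to the helix-loop-helix factors, which bind the E-box, here searched as CANNTG on both strands, a motif that reads as itself on the opposite strand. The 250 bases before the start site are shown for 4 members, as RefSeq sequence of build GRCm38.p6 read 5′ to 3′ on the gene's strand, with every E-box in capitals. The first 3 belong to genes that were highest in the same 4 libraries (below), and Bmp15 is a gene that was not.
Zp3, chr5:135979855-135980104 (+ strand): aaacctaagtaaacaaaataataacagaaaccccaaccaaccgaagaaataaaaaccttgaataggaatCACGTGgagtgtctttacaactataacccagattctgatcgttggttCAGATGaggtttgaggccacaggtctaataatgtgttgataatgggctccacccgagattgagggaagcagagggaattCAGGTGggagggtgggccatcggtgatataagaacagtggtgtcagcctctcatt
Padi6, chr4:140742644-140742893 (- strand): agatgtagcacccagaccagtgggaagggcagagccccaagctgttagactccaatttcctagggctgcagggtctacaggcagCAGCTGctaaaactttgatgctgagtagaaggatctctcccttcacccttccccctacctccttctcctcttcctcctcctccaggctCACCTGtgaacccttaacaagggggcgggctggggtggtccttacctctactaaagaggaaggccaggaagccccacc
Zar1, chr5:72581085-72581334 (- strand): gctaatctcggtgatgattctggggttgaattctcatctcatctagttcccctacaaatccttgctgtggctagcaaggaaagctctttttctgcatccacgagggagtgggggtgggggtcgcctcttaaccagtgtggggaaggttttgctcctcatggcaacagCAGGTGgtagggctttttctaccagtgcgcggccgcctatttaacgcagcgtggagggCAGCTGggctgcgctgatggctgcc
Bmp15, chrX:6320725-6320974 (- strand): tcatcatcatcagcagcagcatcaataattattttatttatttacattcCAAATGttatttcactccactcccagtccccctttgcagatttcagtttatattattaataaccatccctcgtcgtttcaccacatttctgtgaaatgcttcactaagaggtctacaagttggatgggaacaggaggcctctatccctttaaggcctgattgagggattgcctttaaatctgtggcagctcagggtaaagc
The Zp3 window held 3 E-boxes, those of Padi6 and Zar1 held 2 each, and that of Bmp15 held 1. Among members not highest in those same libraries, Fbxw24 held 3, Nobox and Rfpl4 held 2 each, and Kit and Uchl1 held 0. The 4 windows shown are examples, and a relation of E-box number to the libraries was not tested. Such a match was present in 66.2% of all 32851 promoter windows of the same length and in 23 of 28 windows of the 25 members in the table. The element TAATTG, a core bound by NOBOX, was present in 7.17% of all windows and in 2 of the 28, and in none of the 4 shown. The related element TAATTA was present in 4.84% of all windows and in 2 of the 28, and of the 4 shown the Bmp15 window held it.

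Depth was 13898112 to 17751053 reads per library, recovered from the FPKM. The mitochondrial share of summed FPKM was highest in CTX 3, at 28.9%, with 11.7% to 17.5% elsewhere. Genes of oviduct and ciliated epithelium summed to 384 FPKM in CTX 3, 119 FPKM in CTX 1, 74.4 FPKM in CTX 2 and 80.2 FPKM in Control 1, and to 5.22 to 17.7 FPKM elsewhere. Erythroid genes summed to 3310 FPKM in Control 3 and to 293 to 860 FPKM elsewhere. The part of these cells in the oocyte values was not tested. Markers of the labelled cells were present, and 11 of 11 granulosa genes were tested. They summed to 4880 to 5725 FPKM in CTX_HCQ, 4726 to 6838 FPKM in CTX and 4023 to 6181 FPKM in Control libraries. Foxl2, a transcription factor that maintains granulosa identity, stood at 67.8 to 104 FPKM over all libraries. Markers of other ovarian cells were present too, among them luteal genes summing to 2479 to 7798 FPKM, endothelial genes to 18.0 to 57.4 FPKM and smooth muscle genes to 40.2 to 167 FPKM. Being tested was not particular to granulosa genes, since 7 of 7 luteal, 7 of 7 stroma and 6 of 6 endothelial genes were tested as well. The luteal sum was above the granulosa sum in CTX_HCQ 2, CTX 1 and CTX 3 and below it in the other libraries.

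Oocyte transcripts were detected in every library as a small share of the total. The 34 genes summed to 485, 742 and 431 FPKM in the CTX_HCQ libraries, 554, 688 and 695 FPKM in the CTX libraries and 738, 527 and 520 FPKM in the Control libraries. They thus made up 0.161% to 0.242% of all FPKM. By this share CTX 3 stood at 0.184%, beside 0.183% in Control 2. The mean sum was 553 ± 166 FPKM in CTX_HCQ, 646 ± 79.4 FPKM in CTX and 595 ± 124 FPKM in Control (SD, n = 3 each), and the 3 groups overlapped. As a share of FPKM without mitochondrial transcripts, which removes the high mitochondrial level of CTX 3, the genes took 0.217 ± 0.0357% in CTX_HCQ, 0.240 ± 0.0399% in CTX and 0.231 ± 0.0474% in Control. By library the share without mitochondrial transcripts was 0.256% to 0.285% in CTX_HCQ 2, CTX 2, CTX 3 and Control 1, and 0.187% to 0.210% elsewhere. In bulk RNA, fewer oocytes and less RNA per oocyte cannot be told apart.

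**Figure D1:**
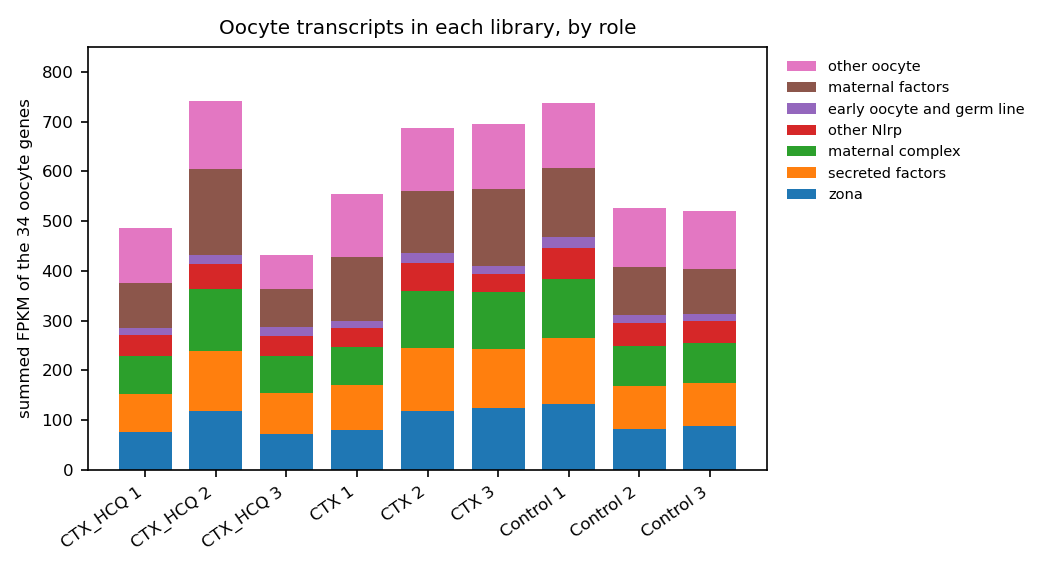
Summed FPKM (vertical axis) of the 34 oocyte genes in each of the 9 libraries (horizontal axis), stacked by role. CTX_HCQ 2, CTX 2, CTX 3 and Control 1 stand at 688 to 742 FPKM and the other libraries at 431 to 554 FPKM.

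The differences between libraries ran across the groups. CTX_HCQ 2, CTX 2, CTX 3 and Control 1 held the highest sums, so that each group contributed at least 1 of them, and 13 of the 32 tested genes had exactly these libraries as their 4 highest. These 13 were Zp1, Zp2, Zp3, Gdf9, Oosp1, Padi6, Tle6, Khdc3, Zar1, Npm2, Mos, Oas1d and Oog1. A further 11 shared 3 of the 4. Ddx4 shared none, Uchl1 shared 1, and Bmp15, Nlrp2, Nlrp4f, Nlrp9b, Nobox and Dazl shared 2. Control 1 was the highest library for 15 genes, and CTX_HCQ 3 was the lowest for 14. Over the 9 libraries the highest value of a tested gene was 1.66 to 3.07 times its lowest, with a median of 2.06, where the median over all tested genes with no value of 0 was 2.18. Endothelial, smooth muscle, luteal and theca markers were also above their levels in CTX_HCQ 1, CTX_HCQ 3, Control 2 and Control 3 in these 4 libraries. The granulosa list was not, at 4880 FPKM in CTX_HCQ 2 beside 5725 FPKM in CTX_HCQ 3. The endothelial list summed to 47.9 FPKM in CTX_HCQ 2, 44.6 FPKM in CTX 2, 30.2 FPKM in CTX 3 and 47.8 FPKM in Control 1. The luteal list summed to 5563, 6106, 5623 and 6134 FPKM in the same order. In CTX 1 these lists stood higher, at 57.4 and 7798 FPKM. The part of these cells in the oocyte levels was not tested.

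**Figure D2:**
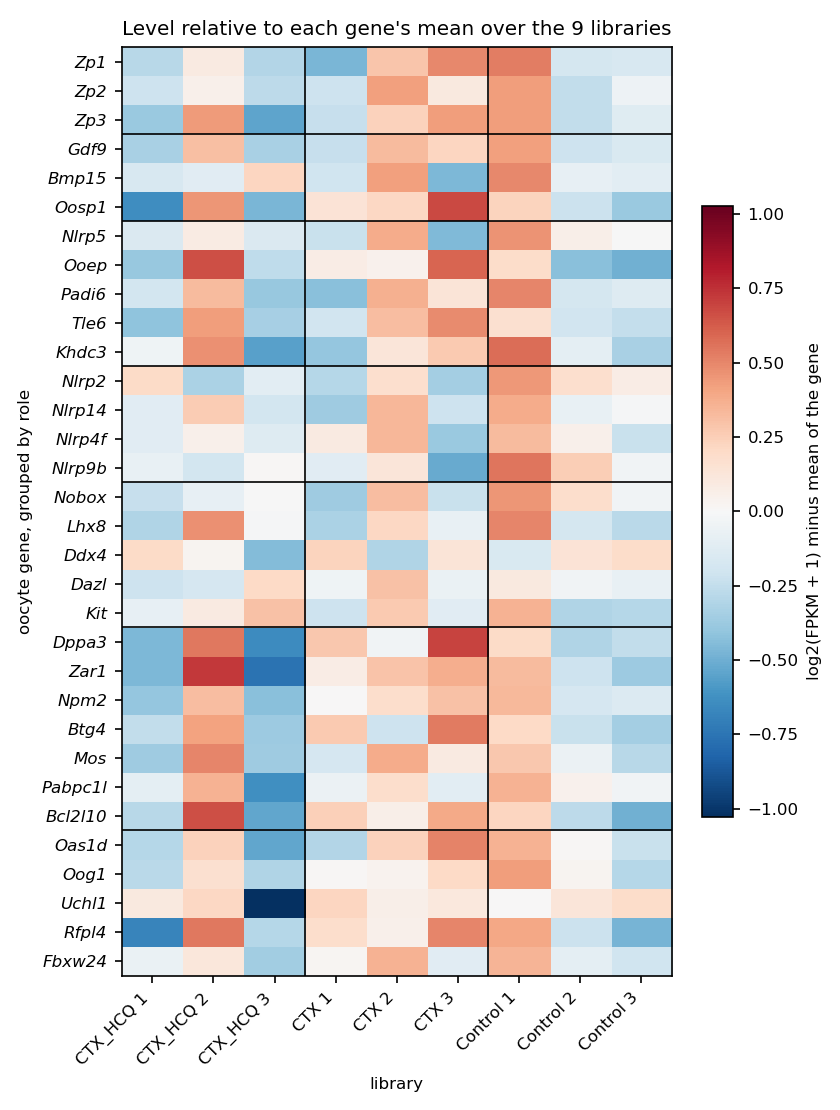
The 32 tested oocyte genes (rows, grouped by role from the zona genes at the top to the other oocyte genes at the bottom) in the 9 libraries (columns). Colour gives log2(FPKM + 1) minus the gene's mean over the libraries. Control 1 is the highest library for 15 genes and CTX_HCQ 3 the lowest for 14.

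The zona pellucida genes encode the glycoproteins of the oocyte coat: ZP2 and ZP3 form its filaments and ZP1 links them. Zp3 (ENSMUSG00000004948) stood at 41.1, 73.2 and 36.7 FPKM in the CTX_HCQ libraries, 45.5, 63.6 and 72.9 FPKM in the CTX libraries and 73, 45 and 49.2 FPKM in the Control libraries. Zp2 (ENSMUSG00000030911) stood at 22.8, 27.7 and 21.9 FPKM in the CTX_HCQ libraries, 22.8, 36.1 and 28.6 FPKM in the CTX libraries and 36.3, 22.2 and 25.7 FPKM in the Control libraries. Zp1 (ENSMUSG00000024734) stood at 12.7, 16.8 and 12.6 FPKM in the CTX_HCQ libraries, 11, 19.3 and 22.4 FPKM in the CTX libraries and 23.1, 13.8 and 13.9 FPKM in the Control libraries. In each group at least 1 library was high and at least 1 was low, so the groups overlapped for all 3 genes. On the FPKM scale the 9 libraries fell apart on Zp3, with 4 at 63.6 FPKM or more and 5 at 49.2 FPKM or less, and on Gdf9 with 4 at 66.1 FPKM or more and 5 at 50.6 FPKM or less. On the log2(FPKM + 1) scale planned for correlations, the largest Zp3 gap was 0.363, while the 5 lower libraries spanned 0.411. Correlations of Zp3 with other genes were not tested over the libraries, a choice that rests on the FPKM scale.

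Gdf9 and Bmp15 encode the growth factors through which the oocyte acts on granulosa cells, and Oosp1 encodes an oocyte-secreted protein. Gdf9 (ENSMUSG00000018238) stood at 44.5, 70.2 and 44.6 FPKM in the CTX_HCQ libraries, 47.7, 71 and 66.1 FPKM in the CTX libraries and 76, 48.5 and 50.6 FPKM in the Control libraries. Bmp15 (ENSMUSG00000023279) stood at 16.3, 16.8 and 21.5 FPKM in the CTX_HCQ libraries, 15.7, 24.9 and 13.1 FPKM in the CTX libraries and 26.3, 17.3 and 16.9 FPKM in the Control libraries. The growth factor genes shared their high levels in CTX 2 and Control 1 but parted in CTX_HCQ 2 and CTX 3, where Gdf9 was high and Bmp15 was not. Gdf9 has 2031 bases of exon and Bmp15 3060, and these 2 libraries had the most negative trends with gene length (below). The part of the length trend in this difference was not tested. The ratio of Gdf9 to Bmp15 was 2.74, 4.17 and 2.08 in the CTX_HCQ libraries, 3.03, 2.85 and 5.06 in the CTX libraries and 2.89, 2.81 and 2.98 in the Control libraries. Oosp1 (ENSMUSG00000041857) stood at 15.7, 34.5 and 17.8 FPKM in the CTX_HCQ libraries, 27.6, 29 and 40.4 FPKM in the CTX libraries and 29.3, 21.2 and 18.8 FPKM in the Control libraries. CTX 3 held its highest value and CTX_HCQ 1 its lowest.

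**Figure D3:**
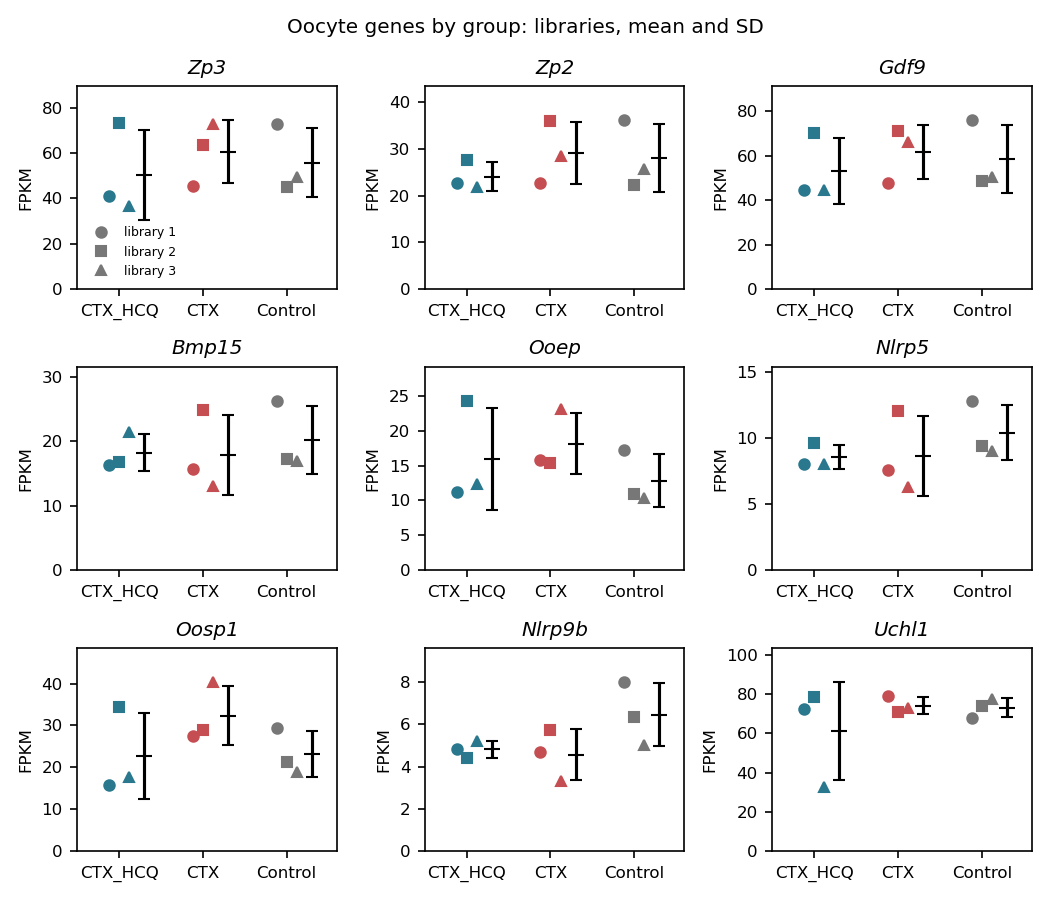
FPKM (vertical axes, from 0) of 9 oocyte genes by group (horizontal axes). Each symbol is a library, and the bar beside it gives the group mean with the SD of its 3 libraries. For Zp3 and Gdf9 the groups overlap around a high and a low level, and for Uchl1 the lowest library is CTX_HCQ 3 at 32.6 FPKM.

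The subcortical maternal complex joins NLRP5, OOEP, TLE6 and KHDC3, and PADI6 is needed for the cytoplasmic lattices that it belongs to. Padi6 was the most abundant of these genes, at 34.2, 49.5 and 29.8 FPKM in the CTX_HCQ libraries, 28.8, 50.6 and 43.2 FPKM in the CTX libraries and 55.7, 34.4 and 35.6 FPKM in the Control libraries. Tle6 stood at 20.2, 36.9 and 21.2 FPKM in the CTX_HCQ libraries, 23.5, 34 and 38.4 FPKM in the CTX libraries and 30.5, 23.6 and 22.8 FPKM in the Control libraries. Both followed the zona genes, high in CTX_HCQ 2, CTX 2, CTX 3 and Control 1. Ooep stood at 11.2, 24.3 and 12.3 FPKM in the CTX_HCQ libraries, 15.8, 15.4 and 23.2 FPKM in the CTX libraries and 17.2, 10.9 and 10.4 FPKM in the Control libraries. Nlrp5 stood at 8.01, 9.58 and 8.04 FPKM in the CTX_HCQ libraries, 7.56, 12 and 6.29 FPKM in the CTX libraries and 12.8, 9.41 and 8.97 FPKM in the Control libraries. Although their proteins belong to the same complex, Ooep was at its 2 highest levels in CTX_HCQ 2 and CTX 3, where Nlrp5 was at 9.58 and 6.29 FPKM. Ooep has 2138 bases of exon and Nlrp5 4847, and the part of the length trend (below) in this was not tested. The ratio of Ooep to Nlrp5 was 1.40, 2.54 and 1.53 in the CTX_HCQ libraries, 2.09, 1.28 and 3.68 in the CTX libraries and 1.35, 1.16 and 1.15 in the Control libraries. Khdc3 was scarce, at 2.38, 3.82 and 1.37 FPKM in the CTX_HCQ libraries, 1.65, 2.81 and 3.21 FPKM in the CTX libraries and 4.2, 2.26 and 1.78 FPKM in the Control libraries, from 43 to 146 reads per library.

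The other Nlrp members belong to a gene family expanded in the mouse germ line, whose close copies may share reads and are uncertain as single genes. Nlrp14 was the most abundant, at 22.5 to 38.3 FPKM with a median of 27.7 FPKM over the 9 libraries. Nlrp9b stood at 4.84, 4.41 and 5.21 FPKM in the CTX_HCQ libraries, 4.68, 5.72 and 3.32 FPKM in the CTX libraries and 8.02, 6.36 and 5.03 FPKM in the Control libraries. Nlrp2 stood at 3.37, 2.04 and 2.53 FPKM in the CTX_HCQ libraries, 2.12, 3.3 and 2 FPKM in the CTX libraries and 4.2, 3.3 and 3.03 FPKM in the Control libraries. For these 2 genes CTX 3 was the lowest library and Control 1 the highest, and CTX overlapped Control through CTX 2. Nlrp4f stood at 6.06 to 10.7 FPKM.

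Genes of early oocytes and of the germ line were low. Figla, which encodes the activator of the zona genes in small oocytes, stood at 0.433, 1.92 and 0.234 FPKM in the CTX_HCQ libraries, 0.356, 0.141 and 0.291 FPKM in the CTX libraries and 0.564, 0.4 and 0.58 FPKM in the Control libraries, from 2 to 28 reads. Its value in CTX_HCQ 2 was above that in each of the other 8 libraries. Sohlh1, which acts in the oocytes of primordial follicles, stood at 0.234, 0.266 and 0.506 FPKM in the CTX_HCQ libraries, 0.646, 0.365 and 0.236 FPKM in the CTX libraries and 0.503, 0.0865 and 0.141 FPKM in the Control libraries, from 2 to 14 reads, and no group was apart. Nobox, which encodes a homeobox factor that drives oocyte genes, stood at 4.59, 5.2 and 5.57 FPKM in the CTX_HCQ libraries, 4.11, 7.19 and 4.63 FPKM in the CTX libraries and 8.02, 6.45 and 5.43 FPKM in the Control libraries. Lhx8, which encodes a partner factor of early oocytes, stood at 1.79, 3.8 and 2.42 FPKM in the CTX_HCQ libraries, 1.76, 3 and 2.28 FPKM in the CTX libraries and 3.89, 2.05 and 1.84 FPKM in the Control libraries. Both were highest in Control 1, and neither separated the groups. Ddx4, a germ line RNA helicase gene, stood at 1.44, 1.18 and 0.562 FPKM in the CTX_HCQ libraries, 1.5, 0.722 and 1.33 FPKM in the CTX libraries and 0.919, 1.35 and 1.43 FPKM in the Control libraries, from 26 to 76 reads per library. Dazl, which encodes a germ cell RNA-binding protein, stood at 1.58, 1.65 and 2.44 FPKM in the CTX_HCQ libraries, 1.9, 2.68 and 1.85 FPKM in the CTX libraries and 2.19, 1.91 and 1.83 FPKM in the Control libraries. Kit, the receptor for the KIT ligand of granulosa cells and also expressed by other ovarian cells, stood at 4.33, 5.01 and 5.95 FPKM in the CTX_HCQ libraries, 3.86, 5.79 and 4.2 FPKM in the CTX libraries and 6.22, 3.55 and 3.61 FPKM in the Control libraries. The 7 genes together summed to 14.4, 19.0 and 17.7 FPKM in the CTX_HCQ libraries, 14.1, 19.9 and 14.8 FPKM in the CTX libraries and 22.3, 15.8 and 14.9 FPKM in the Control libraries.

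Maternal factors act when the oocyte matures or in the early embryo. Bcl2l10, a BCL2 family gene, was the most abundant, at 26.8 to 62.8 FPKM with a median of 41.1 FPKM. Dppa3, whose protein protects maternal DNA methylation, stood at 14.1, 29.3 and 12.3 FPKM in the CTX_HCQ libraries, 24.3, 19.3 and 32.8 FPKM in the CTX libraries and 22.9, 15.8 and 16.5 FPKM in the Control libraries. Zar1, which encodes an RNA-binding protein that stores maternal transcripts, stood at 10.9, 26.1 and 8.65 FPKM in the CTX_HCQ libraries, 16.3, 19.1 and 20.2 FPKM in the CTX libraries and 19.5, 13.1 and 11.6 FPKM in the Control libraries. CTX_HCQ held both the highest Zar1 value, in CTX_HCQ 2, and the lowest, in CTX_HCQ 3. Npm2, a histone chaperone gene, stood at 15.3, 25.8 and 15 FPKM in the CTX_HCQ libraries, 20.5, 23.4 and 25.4 FPKM in the CTX libraries and 26.1, 18 and 18.5 FPKM in the Control libraries. Mos, the kinase gene of meiotic arrest, stood at 6.74, 13.1 and 6.75 FPKM in the CTX_HCQ libraries, 7.88, 12 and 9.62 FPKM in the CTX libraries and 11.1, 8.58 and 7.2 FPKM in the Control libraries. Npm2 and Mos followed the zona genes in their 4 highest libraries. Btg4, whose protein recruits the deadenylase to maternal transcripts, stood at 5.83, 9.89 and 5.3 FPKM in the CTX_HCQ libraries, 8.82, 6.05 and 10.8 FPKM in the CTX libraries and 8.41, 5.95 and 5.39 FPKM in the Control libraries. Pabpc1l, the poly(A)-binding protein gene of oocytes and early embryos, ran from 2.30 FPKM in CTX_HCQ 3 to 5.52 FPKM in CTX_HCQ 2.

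Among the remaining genes, Uchl1, a ubiquitin hydrolase gene abundant in oocytes and neurons, had the highest mean of all 34, at 69.4 ± 14.3 FPKM (SD, n = 9). It stood at 72.6, 78.5 and 32.6 FPKM in the CTX_HCQ libraries, 78.9, 70.6 and 72.8 FPKM in the CTX libraries and 67.7, 73.8 and 77.3 FPKM in the Control libraries. CTX_HCQ 3 stood apart at 32.6 FPKM, and the other libraries lay at 67.7 FPKM or more. Over the 9 libraries the next means were those of Gdf9 at 57.7 ± 12.8 FPKM and Zp3 at 55.6 ± 15.0 FPKM, and the ranges of mean ± SD of these 3 genes overlapped. Bcl2l10 at 40.9 ± 12.2 FPKM and Padi6 at 40.2 ± 9.85 FPKM followed. The oocyte members of other families were Fbxw24 at 14.4 to 24.3 FPKM, Oas1d at 9.48 to 20.6 FPKM, Rfpl4 at 8.01 to 20 FPKM and Oog1 at 0.744 to 1.92 FPKM. Copies of Oas1d, Oog1 and Fbxw24 in the mouse genome may share their reads, and these 3 are uncertain as single genes.

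Cyclophosphamide alone was assessed by setting CTX against Control, and no oocyte gene differed beyond the spread between libraries. Limma called 0 of the 32 genes at an adjusted p of 0.05, where 0% of all 14431 tested genes were called, and adjusted p lay between 0.653 and 0.984. At an unadjusted p under 0.05 there were 0 of 32 with limma and 0 with voom on recovered reads, where 7.80% of all tested genes passed with limma. The groups overlapped for all 32, where 8.72% of tested genes were higher and 11.0% lower in CTX without overlap. The median log2 difference of the oocyte genes was 0.06, with 20 higher and 12 lower, and that of all tested genes was -0.00449. It was -0.04 without CTX 2, -0.02 without Control 3, -0.01 without Control 2 and -0.05 with the trend on gene length removed, and it was 0.17 without CTX 1 and 0.25 without Control 1. Ooep averaged 18.1 ± 4.36 FPKM in CTX and 12.8 ± 3.82 FPKM in Control (SD, n = 3 each), a log2 difference of 0.48 (SE 0.31). Nlrp9b averaged 4.57 ± 1.2 FPKM in CTX and 6.47 ± 1.5 FPKM in Control, a log2 difference of -0.43 (SE 0.21), and Nlrp2 averaged 2.47 ± 0.721 FPKM in CTX and 3.51 ± 0.612 FPKM in Control, a difference of -0.39 (SE 0.21). These were the 3 genes of smallest p (adjusted p by limma 0.666 for Ooep and 0.653 for the others). For Zp3 the log2 difference was 0.13 with a 95% confidence interval of -0.57 to 0.82, and for Gdf9 it was 0.09 with an interval of -0.52 to 0.69. Among lists of other cell types, 6 of 6 oviduct and ciliated epithelium genes and 6 of 6 endothelial genes were above 0. So were 6 of 11 granulosa, 4 of 7 luteal and 1 of 7 stroma genes. Limma called 0 genes in each list, and their part in the oocyte values was not tested.

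The comparison of CTX_HCQ with CTX addressed hydroxychloroquine in mice given cyclophosphamide, and again no oocyte gene passed. Limma called 0 of 32 genes, where 0% of all tested genes were called, with adjusted p between 0.906 and 0.996. At an unadjusted p under 0.05 there were 0 of 32 with limma and with voom, where 5.44% of all tested genes passed with limma. The groups overlapped for all 32, where 3.45% of tested genes were higher and 4.57% lower in CTX_HCQ without overlap. The log2 difference was below 0 in 25 of the 32 genes, with a median of -0.21, where the median of all tested genes was 0.01. Lists of other cell types are set beside it, with 0 genes called in each. The log2 difference was below 0 in 6 of 6 oviduct and ciliated epithelium genes (median -1.42), each with an unadjusted p under 0.05 by limma. It was below 0 in 5 of 6 endothelial genes (median -0.55), 6 of 7 luteal genes (median -0.53) and 5 of 6 macrophage genes (median -0.06). It was above 0 in 7 of 7 stroma genes (median 0.34) and 8 of 11 granulosa genes (median 0.11). In the theca and smooth muscle lists 2 genes were above 0 and 2 below. Their part in the oocyte values was not tested. The median of the oocyte genes was -0.07 without CTX_HCQ 3, -0.10 without CTX 2 and -0.13 without CTX_HCQ 1. It was -0.38 without CTX_HCQ 2 and -0.08 with the trend on gene length removed. Without CTX_HCQ 2, 7 of the 32 genes and 2440 of all 14431 tested genes had an unadjusted p under 0.05, and 0 of either were called. Oosp1 averaged 22.7 ± 10.3 FPKM in CTX_HCQ and 32.3 ± 7.03 FPKM in CTX, a log2 difference of -0.56 (SE 0.30). Dppa3 averaged 18.6 ± 9.32 FPKM in CTX_HCQ and 25.4 ± 6.8 FPKM in CTX, a difference of -0.50 (SE 0.32), and Npm2 averaged 18.7 ± 6.15 FPKM in CTX_HCQ and 23.1 ± 2.44 FPKM in CTX, a difference of -0.33 (SE 0.24). These were the 3 of smallest p (adjusted p by limma 0.906 each). For Zp3 the log2 difference was -0.30 with a 95% confidence interval of -0.996 to 0.389, and for Gdf9 it was -0.22 with an interval of -0.83 to 0.38.

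CTX_HCQ with Control compared both drugs with neither, and shares its libraries with the other comparisons. Limma called 0 of 32 genes, where 0% of all tested genes were called, with an adjusted p of 1 for each. At an unadjusted p under 0.05 there were 0 of 32 with limma and with voom, where 2.16% of all tested genes passed with limma, and the groups overlapped for all 32, where 3.25% of tested genes were higher and 3.06% lower in CTX_HCQ without overlap. The median log2 difference was -0.12, with 27 genes lower and 5 higher, where the median of all tested genes was -0.0109. It was 0.01 without CTX_HCQ 3, 0.04 without Control 1 and -0.07 without CTX_HCQ 1, and it was -0.19 without Control 2, -0.23 without Control 3 and -0.32 without CTX_HCQ 2. The smallest p belonged to Nlrp9b, at 4.82 ± 0.404 FPKM in CTX_HCQ and 6.47 ± 1.5 FPKM in Control, a log2 difference of -0.34 (SE 0.21), to Nlrp2 with a difference of -0.31 (SE 0.21) and to Nobox, at 5.12 ± 0.498 FPKM in CTX_HCQ and 6.63 ± 1.31 FPKM in Control, with a difference of -0.31 (SE 0.21). For Zp3 the log2 difference was -0.18 with a 95% confidence interval of -0.87 to 0.51, and for Gdf9 it was -0.14 with an interval of -0.74 to 0.47.

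**Figure D4:**
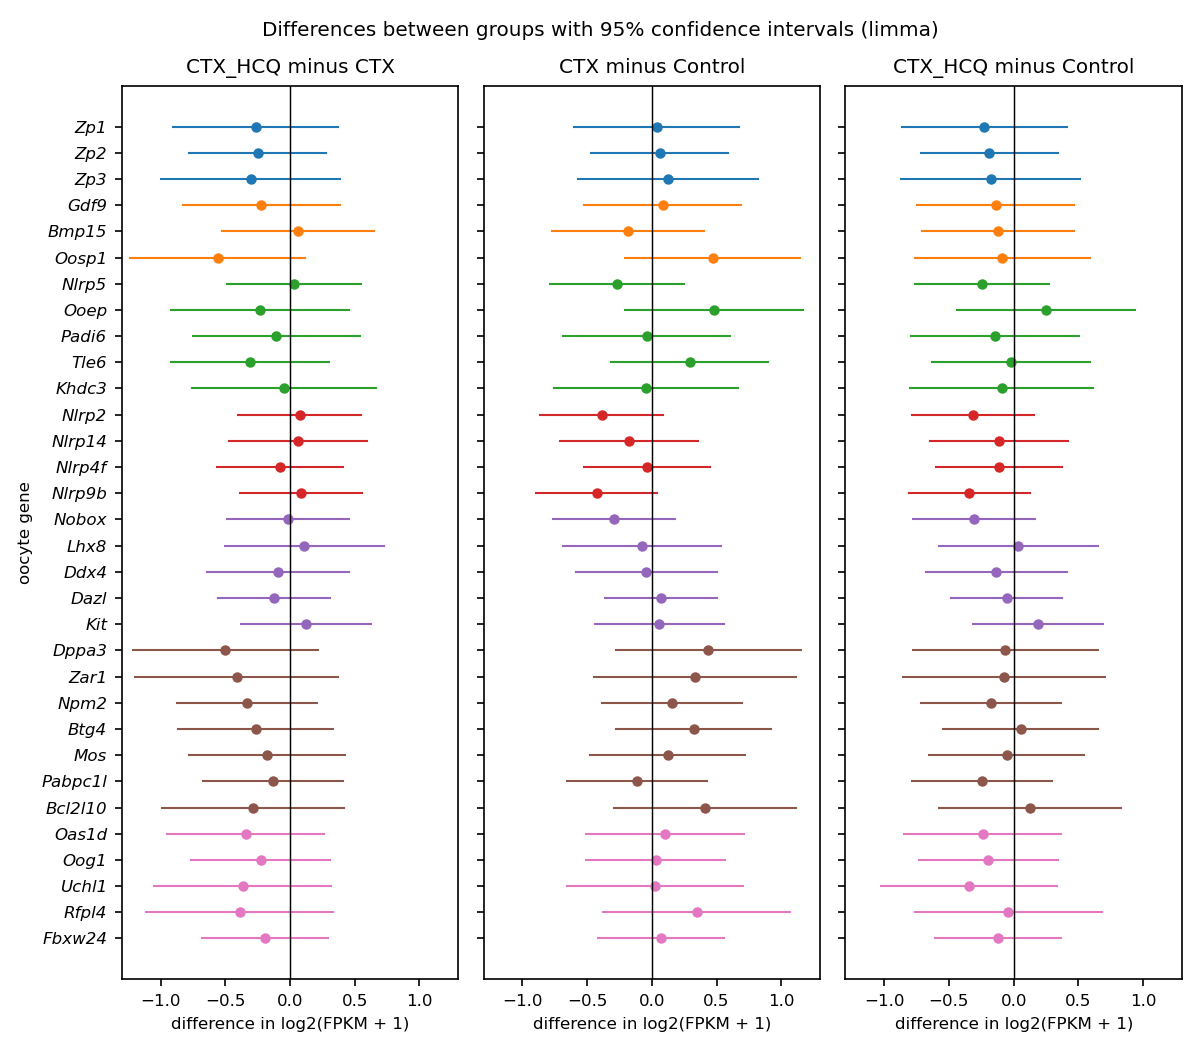
Difference in log2(FPKM + 1) (horizontal axes) for each of the 32 tested oocyte genes (rows), as limma estimates with 95% confidence intervals, in the 3 comparisons. Colours mark the roles, in the row order zona, secreted factors, maternal complex, other Nlrp, early oocyte and germ line, maternal factors and other oocyte genes. Every interval spans 0.

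The genes did not move as a block, and in the comparisons that include the CTX group their order went in part with gene length. Across the 32 genes, the log2 difference of CTX from Control had a Spearman correlation with summed exon length of -0.54, and that of CTX_HCQ from CTX had one of 0.64. The same correlations over all 14431 tested genes were -0.31 and 0.34, so the trend was not particular to oocyte genes. Between CTX_HCQ and Control it was -0.03 over the 32 genes. Genes are not independent replicates, and these values are descriptions. The correlations of -0.54 and 0.64 share the CTX libraries with opposite sign and are not independent of each other. By library, the correlation of a gene's deviation with its length was most negative in CTX 3, at -0.61 over the 32 genes and -0.32 over all tested genes, and in CTX_HCQ 2, at -0.52 and -0.29, and most positive in CTX_HCQ 3, at 0.58 and 0.34. An example chosen after the values were seen is CTX 3 beside CTX 2, libraries of the same group with similar sums. Of the 16 shorter genes (892 to 2451 bases of exon) 12 were higher in CTX 3 than in CTX 2, and of the 16 longer genes (2532 to 8911 bases) 4 were. Dppa3, at 892 bases, stood at 1.70 times its CTX 2 level in CTX 3, and Nlrp5, at 4847 bases, at 0.524 times. Other genes went against length: Ddx4 (3014 bases) stood at 1.85 times and Btg4 (2556 bases) at 1.78 times. Fbxw24 (1488 bases) stood at 0.709 times and Nobox (2012 bases) at 0.644 times. RNA integrity was not analysed here, and its part in this trend was not tested.

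**Figure D5:**
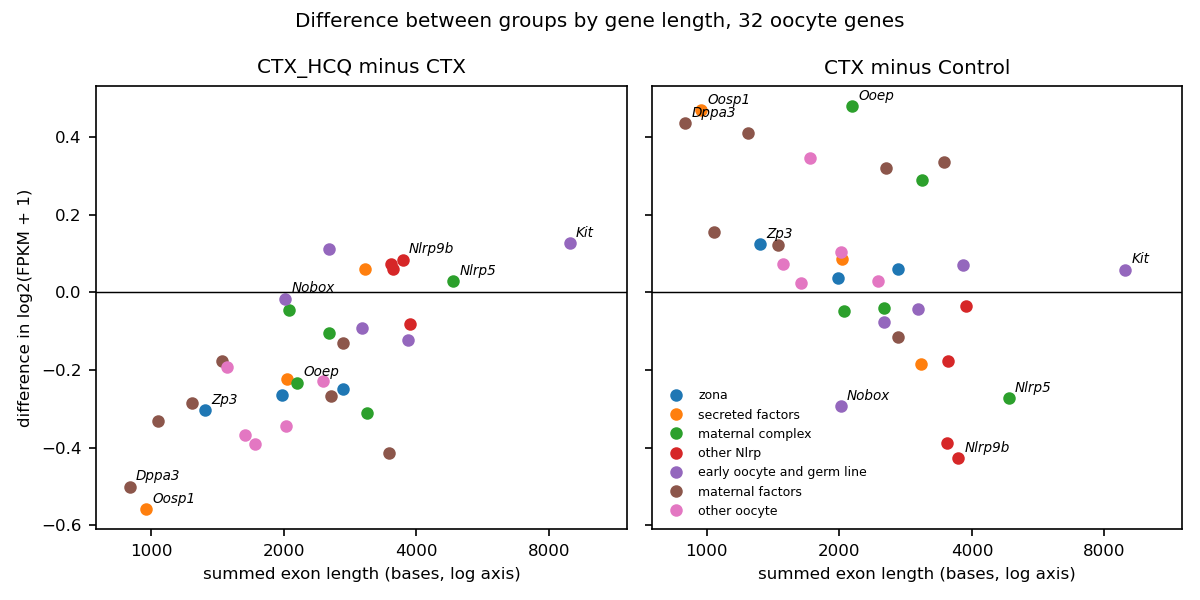
Difference in log2(FPKM + 1) (vertical axis) of the 32 tested oocyte genes against summed exon length in bases (horizontal axis, log scale), for CTX_HCQ minus CTX and CTX minus Control, coloured by role. Short genes such as Dppa3 and Oosp1 lie at -0.50 and -0.56 between CTX_HCQ and CTX and at 0.44 and 0.47 between CTX and Control, and the long Nlrp5 lies at 0.03 and -0.27. Both comparisons share the CTX libraries with opposite sign, so the panels are not independent.

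A longer list of oocyte-associated genes was set beside the 34, some of which granulosa cells also express, such as Dnmt1 and Uhrf1. The 60 listed names include H1f8 and H1foo for the same gene, and all 59 genes were found and 53 tested. Limma called 0 of 53 in each comparison, where 0% of all tested genes were called. At an unadjusted p under 0.05 by limma there were 2 in CTX with Control and 3 in CTX_HCQ with CTX. CTX_HCQ with Control had 0. The shares over all tested genes were 7.80%, 5.44% and 2.16%, in this order. Between CTX and Control 29 were higher and 24 lower (median log2 difference 0.03), between CTX_HCQ and CTX 11 were higher and 42 lower (median -0.19), and between CTX_HCQ and Control 9 were higher and 44 lower (median -0.17). The most abundant tested gene was H1foo, the oocyte linker histone, at 33.3, 48.8 and 31.7 FPKM in the CTX_HCQ libraries, 33.4, 50.2 and 68.8 FPKM in the CTX libraries and 55.8, 41.6 and 37.3 FPKM in the Control libraries. It was highest in the same 4 libraries as Zp3. Next came Rnf114, a ubiquitin ligase gene, at 22.1 to 35.6 FPKM, Dnmt1, the maintenance DNA methyltransferase gene, at 14.5 to 33.2 FPKM, and Uhrf1, which encodes its partner, at 13.6 to 23.4 FPKM. Among the untested genes, Sycp3 of the synaptonemal complex stood at 0.876 FPKM or less and Stag3 of meiotic cohesin at 0.261 FPKM or less.

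The non-member genes whose levels over the 9 libraries were most like the mean of the 32 oocyte genes were ranked by Pearson correlation, as a measure of likeness with no test. That mean was itself above 0 in CTX_HCQ 2, CTX 2, CTX 3 and Control 1 and below 0 in the other libraries, so the correlations describe the gap between these sets together with the variation within them. The first 10 were Oas1c, Oas1e, Oas1h, Mmrn1, Fbxw27, Fbxw21, Oog2, Trim61, Ninj2 and Tubb2b, with correlations of 0.956 down to 0.901. Oas1c, Oas1e and Oas1h are of the family of the member Oas1d, Fbxw27 and Fbxw21 of that of Fbxw24, and Oog2 of that of Oog1. Copies within these families may share reads, and the part of shared reads in these correlations was not tested. Among the members themselves, the correlation with the mean of the other members was 0.971 for Gdf9, 0.948 for Npm2 and 0.945 for Zp3, and it was 0.269 for Bmp15, 0.129 for Dazl, 0.0447 for Nlrp2 and -0.171 for Ddx4.

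The granulosa genes that receive from or signal to the oocyte were present as well. All 19 listed genes were tested, and limma called 0 in each comparison, where 0% of all tested genes were called. Between CTX and Control 10 were higher and 9 lower, between CTX_HCQ and CTX 12 were higher and 7 lower, and between CTX_HCQ and Control 11 were higher and 8 lower. Kitl, the ligand of KIT, stood at 16.0, 13.5 and 16.8 FPKM in the CTX_HCQ libraries, 12.2, 13.6 and 6.88 FPKM in the CTX libraries and 8.52, 13.8 and 13.8 FPKM in the Control libraries. The log2 difference was 0.51 (SE 0.27) between CTX_HCQ and CTX and -0.15 (SE 0.27) between CTX and Control (adjusted p by limma 0.906 and 0.857). The smallest p of the list belonged to Nppc, which encodes the ligand of NPR2 and is named here after its values were seen. Nppc stood at 13.3, 26.8 and 28.0 FPKM in the CTX_HCQ libraries, 27.9, 46.2 and 76.0 FPKM in the CTX libraries and 31.9, 12.4 and 12.5 FPKM in the Control libraries. CTX 3 was the highest library, and CTX overlapped both other groups through CTX 1. Its log2 difference was 1.38 (SE 0.45) between CTX and Control and -1.06 (SE 0.45) between CTX_HCQ and CTX (adjusted p by limma 0.639 and 0.906). Bmpr2, a receptor for GDF9 and BMP15, stood at 18.3 to 46.5 FPKM and its partners Tgfbr1 at 29.3 to 68.2 FPKM and Bmpr1b at 16.5 to 45.5 FPKM over the 9 libraries. Gja1, the gap junction gene of granulosa cells, stood at 225 to 439.9 FPKM, and Npr2, the receptor gene that keeps the oocyte in meiotic arrest, at 33.4 to 72.5 FPKM.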

How the data were processed

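The authors deposited a table of FPKM for 9 poly(A) RNA libraries, and no other measurement was used. The submitters' processing notes name GRCm39 (mm39) as the build and list, without roles or settings, DESeq2 1.20.0, featureCounts 1.5.0-p3, HISAT2 2.0.5 and fastp 0.23.2. Whether counting used strand is not stated there, so reads of overlapping or antisense genes cannot be told apart. Symbols and exon lengths came from GENCODE M21, an annotation of another build, and 52073 of 56748 identifiers had a symbol.

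With exon lengths, low FPKM fell on whole reads within 0.02 reads for 13578 of 14431 tested genes, and a length search resolved the other 853, Bcl2l10 among them. The library sizes behind the FPKM lay within 0.554% of median-of-ratios size factors computed from these reads and up to 8.49% from the read totals.

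Genes with FPKM of at least 1 in at least 3 libraries were tested on log2(FPKM + 1) with limma 3.58.1 (R 4.3.3), in 1 fit of all 9 libraries with a mean per group and a variance trend, two-sided, with Benjamini-Hochberg adjustment over all 14431 genes and a threshold of 0.05. The pseudocount of 1 understates changes of low genes. The method was run on simulated data with independent noise per gene and shifts of 1 or 2 log2 units. These shifts exceed every oocyte gene difference reported here, so that run does not bear on their detection. Alternatives are given in the closing section. No 2 libraries of a group differed by as little as sampling noise, with a chi-square per degree of freedom of 15.3 or more.

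The members and lists were chosen with earlier results of these data known. Genes are named by role, by smallest p (the 3 members in each comparison), by likeness to the mean of the members (10 genes, predicted genes and clone names left out) and, in the longer oocyte list, by abundance (4 genes). Sycp3, Stag3, Nppc and the example of CTX 3 beside CTX 2 were chosen after their values were seen. The planned correlation tests of Zp3 were not run because the libraries fell into 2 sets on it on the FPKM scale. On the planned log2 scale the gap of 0.363 was smaller than the span of the 5 lower libraries, 0.411.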

Additional observations from a re-analysis of the deposited data

How the results depend on the processing

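Results were recomputed under 9 alternatives, of which 2 (the trend on gene length removed, and CTX 3 with CTX_HCQ 3 left out together) were chosen after seeing the data, and with each library left out. No oocyte gene was called in any of them, with a lowest adjusted p by limma of 0.198. Calls over all genes came up only without Control 1, with 0 to 13 called over the libraries left out for CTX with Control, 0 to 10 for CTX_HCQ with CTX and 0 for CTX_HCQ with Control. Genes at an unadjusted p under 0.05 by limma numbered 424 to 2067, 370 to 2440 and 146 to 1079 over the alternatives planned and the libraries left out. The reported counts were 1126, 785 and 312 of 14431 genes. The counts of 370 and 146 are from the fit of genes with a mean FPKM of at least 5, which tested 8387 genes. Among oocyte genes this count was 4 without CTX 2 (1331 of 14431 genes in the same fit) and 1 without Control 3 (468 genes) for CTX with Control, 7 without CTX_HCQ 2 (2440 genes) for CTX_HCQ with CTX, and 0 elsewhere. The median log2 difference of the oocyte genes over the libraries left out ran from -0.037 to 0.248 for CTX with Control, from -0.376 to -0.066 for CTX_HCQ with CTX and from -0.32 to 0.039 for CTX_HCQ with Control.

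Zp3 and Gdf9 changed sign around 0, and the cause was not tested. With CTX 3 and CTX_HCQ 3 left out, Zp3 was at -0.019 for CTX with Control, 0.029 for CTX_HCQ with CTX and 0.01 for CTX_HCQ with Control. With the length trend removed, Zp3 was at -0.051 and Gdf9 at -0.045 for CTX with Control. Over the libraries left out, Zp3 ran from -0.019 to 0.333 and Gdf9 from -0.03 to 0.288 for CTX with Control, and Zp3 from -0.477 to 0.029 and Gdf9 from -0.352 to 0.065 for CTX_HCQ with Control.

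The planned correlation tests of Zp3 were not run. The replicate numbers do not pair the libraries: same-numbered libraries had correlations of -0.457 to 0.135 in their deviations from the group means, and 0 of 9 libraries correlated best with one of its own number. With the replicate number as a block, 0 genes were called in each comparison and 847, 668 and 293 had an unadjusted p under 0.05, with 0 oocyte genes among them. The block cannot change the group differences in this balanced design. Depth limits Figla and Sohlh1, which rest on 2 to 28 reads.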
